A study of Gallus gallus with 12 samples.

Results

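The centrosome and cilium genes of chicken HD11 cells were described in 60 genes out of the 16161 genes of the count table. They were chosen by symbol and level. A gene was taken when its symbol was CEP, IFT or BBS followed directly by a digit, or was CROCC, PCNT, NIN, ODF2, OFD1 or PCM1, and when its mean over 9 libraries was at least 10 counts. The symbol matched in 61 genes, and CEP57L1, with a mean of 5.11 counts, was the one left out. Its counts were 2, 2 and 9 in SeMC+PBS, 4, 0 and 4 in LPS and 8, 10 and 7 in Control. The members nearest to the minimum were BBS10 with a mean of 15.8 counts, CEP19 with 27.3 and CEP126 with 31.2. BBS10 was the 1 member with a group mean under the minimum, since it averaged 30.0 counts in SeMC+PBS, 5.67 in LPS and 11.7 in Control. Its difference between groups is therefore given as a description.

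The centrosome is the main microtubule organizing centre of an animal cell. It consists of a pair of centrioles within a pericentriolar matrix, and a fibrous linker holds the centrioles together between divisions. In a cell that leaves the cycle, the older centriole can dock at the plasma membrane through its distal appendages and grow a primary cilium, a sensory projection built from microtubules. Material moves along the cilium on intraflagellar transport (IFT) trains. The IFT-B complex is known for transport toward the tip, the IFT-A complex for return and for entry of membrane proteins, and the BBSome for moving membrane proteins out. Blood cells, macrophages included, are commonly held to carry few or no primary cilia, whereas centrosomes are present in most dividing animal cells. The roles given below are those known from mammals and other model organisms. Of the members, 6 belong to the centriole linker and pericentriolar scaffold, 11 to centriole duplication and assembly, 9 to the appendages, and 11 to the satellites, the transition zone and ciliogenesis. A further 3 belong to IFT-A, 11 to IFT-B and 7 to the BBSome and its chaperonins, while CEP55 acts in cytokinesis and CEP95 is placed in no role.

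HD11 is a transformed chicken macrophage-like cell line. Se-methylselenocysteine (SeMC) is a selenium-containing amino acid, and lipopolysaccharide (LPS) is a bacterial outer membrane component that activates macrophages. SeMC+PBS cells received 100 µM SeMC about 12 h before PBS took the place of the LPS challenge, LPS cells received 100 ng/mL LPS for 6 h without SeMC, and Control cells received PBS alone, with 3 libraries in each group. All groups were HD11 cells grown in RPMI medium with fetal bovine and chicken serum. The labels do not say whether replicates were separate cultures, so the p-values measure only the spread between these libraries, which may be technical. The SeMC+LPS libraries were left out because their counts equalled the mean of the LPS and SeMC+PBS counts, rounded down, in 60 of 60 members. The same held for 16160 of the 16161 genes of the count table.

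Total counts were 10656332 to 11531551 in SeMC+PBS, 13451069 to 14018893 in LPS and 14972385 to 17024392 in Control. Levels are given in CPM after TMM scaling of the library sizes, a unit that removes differences in depth, and are compared between libraries but not between genes. The summed level of 10 macrophage markers was 4098 to 4404 CPM in SeMC+PBS, 4755 to 4887 CPM in LPS and 4349 to 4511 CPM in Control, and none was at 0 in all libraries. The sum hides opposite changes of single markers in LPS over Control, with log2 fold changes from -2.72 to 1.06. At an FDR under 0.05 and above 1.5-fold, 3 of the 10 were higher and 3 lower, against 6.13% and 5.92% of all genes. Of the other markers, the count table held 3 of 5 epithelial, 2 of 5 fibroblast, 3 of 5 T cell and 1 of 4 B cell genes. The sums of those held reached at most 7.29, 18.1, 6.48 and 0.303 CPM in any library. Of these, the epithelial keratin KRT8 had 45 counts in SeMC+PBS, 11 in LPS and 9 in Control over all libraries of a group, and the fibroblast collagen COL1A1 was higher in SeMC+PBS than in Control by 0.71 on the log2 scale, and their part in the results was not tested. Of 13 genes listed for multiciliated cells, 9 were measured, and their sum was 78.5 to 85.4 CPM in SeMC+PBS, 89.8 to 91.7 CPM in LPS and 85.0 to 92.2 CPM in Control. In bulk RNA, a smaller share of cells that express a gene cannot be told apart from less RNA per cell.

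The LPS libraries did not form a uniform group for these genes. Pericentrin (PCNT), a scaffold of the pericentriolar matrix on chromosome 7 (7082955 to 7180736, GRCg7b), had 116 CPM in LPS replicate 1, but 24.4 and 38.0 CPM in LPS replicates 2 and 3. CEP290, a transition zone and satellite protein encoded on chromosome 1 (42856289 to 42906945), had 21.4 CPM in LPS replicate 1, but 4.62 and 7.12 CPM in replicates 2 and 3. Replicate 1 thus lay within the Control range for both genes, and the other LPS libraries lay below every Control library. Among the 9896 genes that averaged 100 counts or more, 40 (0.404%) were more than 2-fold higher in LPS replicate 1 than in the geometric mean of replicates 2 and 3, and 1 was more than 2-fold lower. Of the 55 members at this level, 5 were among the 40, namely PCNT (3.78-fold), CEP290 (3.51-fold), CEP250 (2.44-fold), CEP162 (2.33-fold) and CEP152 (2.01-fold). This split was noticed in the data and is described without a test.

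The other genes of the 40 included further proteins of the centrosome, the nuclear envelope and the Golgi. Examples were AKAP9, a centrosome and Golgi scaffold (3.95-fold), CNTRL, centriolin (2.46-fold), the kinetochore proteins CENPF (4.54-fold) and CENPE (4.04-fold), and SYNE2, a nuclear envelope protein (3.85-fold). The 40 genes had a median genomic span of 51380 bases, against 16246 bases over 9890 genes, where a span includes introns and is not a transcript length. Relative to the range of the Control libraries, LPS replicates 2 and 3 each lay below it in 39 of the 40 genes, whereas replicate 1 lay below it in 13, within it in 17 and above it in 10. The 40 genes were chosen by these same LPS values, and the shares over all 9896 genes were not computed. These counts therefore cannot show which LPS libraries departed from Control. Of 27 G2/M genes, 3 were among the 40, namely CENPF, CENPE and MKI67. The median log2 difference between replicate 1 and replicates 2 and 3 was 0.08 over the 55 members, -0.01 over the 27 G2/M genes and -0.03 over all 9896 genes. It is not known which LPS library is the typical one. Values with and without replicate 1 are given below for the counts of members and for the members that it moved most.

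**Figure D1:**
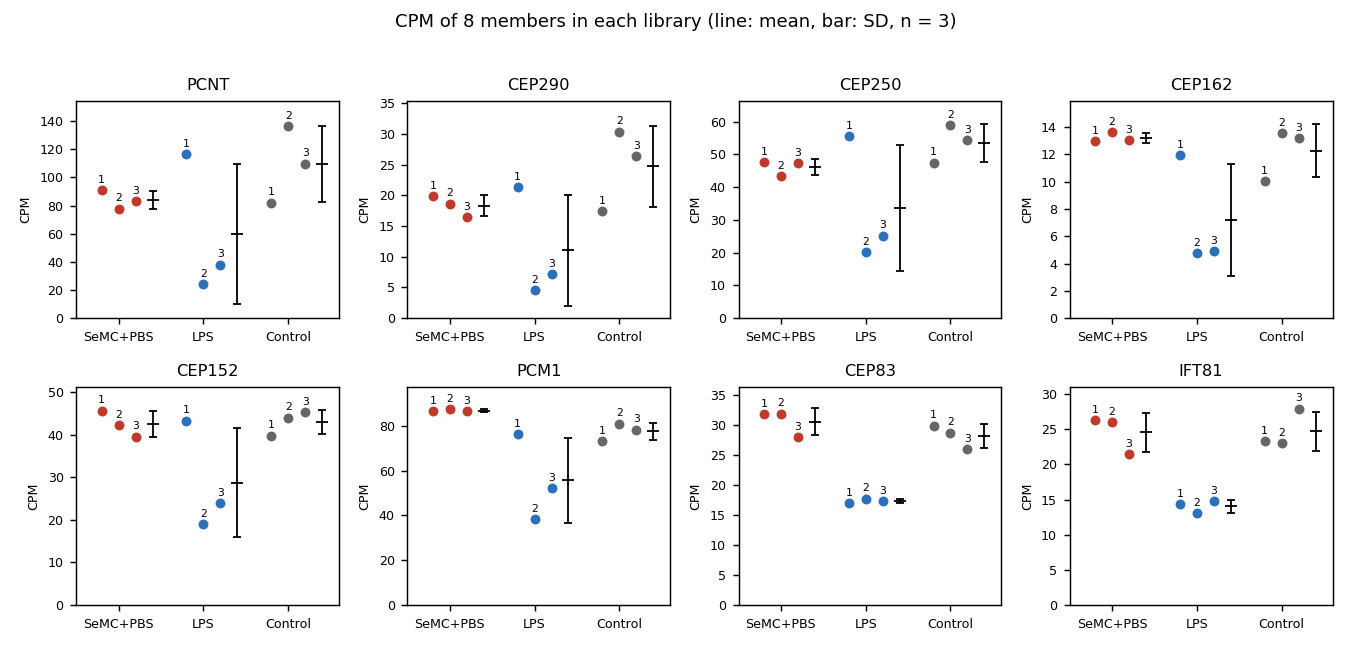
Levels in CPM (vertical axis) of 8 members in each library of SeMC+PBS, LPS and Control; points are libraries numbered by replicate, and the line and bar are the mean and SD (n = 3). LPS replicate 1 sits apart from replicates 2 and 3 for PCNT, CEP290, CEP250, CEP162, CEP152 and PCM1, while all LPS libraries of CEP83 and IFT81 lie together below SeMC+PBS and Control.

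Spread within groups showed the same feature. The highest LPS library exceeded the lowest by more than 1.5-fold in 8 of 55 members (14.5%), against 2.66% of all 9896 genes. These members were PCNT, CEP290, CEP250, CEP162, CEP152, PCM1, CEP135 and CEP128. In SeMC+PBS only IFT27 did so (1.82% of members, against 1.77% of all genes). In Control the share was 3.64% of members, against 1.77% of all genes, and the members were CEP290 and PCNT, both lowest in Control replicate 1.

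SeMC+PBS was compared with Control to describe the effect of SeMC in unstimulated cells. The centrosome and cilium genes did not move in one direction. CROCC, IFT43, BBS2 and CEP131 were higher in SeMC+PBS, while IFT46, IFT122, IFT57 and IFT74 were lower. With edgeR's quasi-likelihood test, an FDR under 0.05 after Benjamini-Hochberg adjustment and a fold change above 1.5, and with BBS10 set aside, 4 of 59 members were higher (6.78%), against 8.5% of all genes tested, and 2 were lower (3.39%), against 5.58%. The higher members were CROCC, CEP19, CEP126 and BBS2, and the lower ones were IFT46 and CEP68. BBS10 also met both thresholds, which makes 5 of 60, but its level in SeMC+PBS brought it into the list. Without the fold-change minimum, and again without BBS10, 12 members were higher (20.3%), against 20.3% of all genes, 15 were lower (25.4%), against 19.1%, and 32 did not pass. The median log2 fold change of the 60 members was -0.004 (-0.01 without BBS10), and that of all 13146 genes tested was 0.001. Over all genes, 60.4% of calls were in the higher direction, or 41.1% with limma on quantile-normalized values. Of the 28 members that passed without a fold-change minimum, 13 passed with every single library left out, and 17 passed in DESeq2. BBS10 is among the members in each of these counts. They were made only for members that had already passed, without a share over all genes, and give no further support.

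CROCC had the lowest adjusted p of the members. It encodes rootletin, the main component of the ciliary rootlet and of the linker that joins the centrioles, and it lies on chromosome 21 (4388373 to 4404315). Its level was 600, 734 and 639 CPM in SeMC+PBS, 398, 376 and 369 CPM in LPS and 256, 295 and 319 CPM in Control. The groups did not overlap, and the SeMC+PBS libraries were highest and the Control libraries lowest. It was 2.26-fold higher in SeMC+PBS than in Control (log2 fold change 1.18, SE 0.0829, edgeR adjusted p = 2.4e-07). Leaving out single libraries gave log2 fold changes of 1.09 to 1.25, and no other annotated gene overlaps CROCC.

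No other gene of the linker and scaffold group had an increase of this size. CEP85L, a pericentriolar protein, had a log2 fold change of 0.28 (edgeR adjusted p = 0.0355), which became 0.16 with an adjusted p of 0.19 without SeMC+PBS replicate 2. CEP68, a linker protein that binds rootletin fibres, had 4.83, 4.43 and 2.85 CPM in SeMC+PBS, against 7.15, 4.51 and 7.53 CPM in Control. Control replicate 2 fell within the SeMC+PBS range, so the groups overlapped. For CEP68 the log2 fold change was -0.67 (SE 0.242, edgeR adjusted p = 0.0389), and without Control replicate 3 the adjusted p was 0.165. PCNT had 90.7, 77.8 and 82.9 CPM in SeMC+PBS, against 82.1, 137 and 110 CPM in Control. Its groups overlapped through Control replicate 1, and its log2 fold change of -0.39 (edgeR adjusted p = 0.0243) became -0.20 with an adjusted p of 0.168 without Control replicate 2. CEP250, which anchors the linker at the centriole base, and CEP70 had log2 fold changes of -0.22 and -0.18 and did not pass.

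Among the 7 BBSome genes, BBS2 and BBS9 were higher and BBS4 and BBS5 were lower without the fold-change minimum, beside BBS10. By this rule, 20.3% of all genes were higher and 19.1% lower. BBS2, a core subunit, had 44.4, 38.8 and 41.1 CPM in SeMC+PBS, against 27.2, 27.5 and 27.7 CPM in Control. All SeMC+PBS libraries lay above all Control libraries (log2 fold change 0.59, SE 0.0797, edgeR adjusted p = 6.7e-05). BBS9, another core subunit, had 22.4, 23.3 and 23.8 CPM in SeMC+PBS, against 18.0, 19.3 and 15.6 CPM in Control. It was also higher without overlap (log2 fold change 0.39, SE 0.104, edgeR adjusted p = 0.0078), but its locus overlaps NT5C3A, which was higher by 0.47 on the log2 scale. BBS10 is related to chaperonins that help to assemble the BBSome in mammals. It had 2.80, 2.35 and 2.68 CPM in SeMC+PBS, 0.463, 0.596 and 0.227 CPM in LPS and 0.596, 0.784 and 0.810 CPM in Control. The SeMC+PBS libraries were above all others, with 3.53-fold the Control level, at low counts. BBS10 lies on chromosome 1 (38126163 to 38128767) and overlaps OSBPL8, whose log2 fold change in SeMC+PBS over Control was 0.12 (edgeR adjusted p = 0.107).

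BBS4 and BBS5 went the other way. BBS4, a subunit that also associates with centriolar satellites, had 11.7, 12.7 and 11.2 CPM in SeMC+PBS, against 14.4, 17.8 and 15.1 CPM in Control. BBS5, a subunit that binds phosphoinositides, had 13.6, 12.3 and 12.0 CPM in SeMC+PBS, against 18.0, 15.8 and 16.2 CPM in Control. Neither gene overlapped between the groups. The log2 fold changes were -0.41 for BBS4 (SE 0.123, edgeR adjusted p = 0.0149) and -0.39 for BBS5 (SE 0.114, edgeR adjusted p = 0.0127), and without SeMC+PBS replicate 3 the adjusted p-values were 0.0595 and 0.0538. BBS7 and BBS12 had log2 fold changes of -0.03 and 0.02 and did not pass.

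Among the IFT-B genes, 4 of 11 were lower and 1 was higher without the fold-change minimum, against 19.1% lower and 20.3% higher of all genes. IFT46, an IFT-B core protein known in algae for carrying outer dynein arms, lies on chromosome 24 (5539942 to 5544647). It had 3.14, 2.17 and 3.80 CPM in SeMC+PBS, 6.72, 10.4 and 7.81 CPM in LPS and 8.28, 6.73 and 8.97 CPM in Control. Every SeMC+PBS library was below every LPS and Control library. IFT46 was 2.63-fold lower in SeMC+PBS than in Control (log2 fold change -1.39, SE 0.217, edgeR adjusted p = 2.0e-04). It has a mean of 90.8 counts over the 9 libraries and overlaps no annotated gene. IFT46, BBS10, CEP68, CEP19 and CEP126 lie below the level set for named genes and were chosen for naming after their values were seen.

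IFT74, which together with IFT81 binds tubulin, had 16.3, 17.0 and 17.1 CPM in SeMC+PBS, against 22.9, 23.0 and 23.8 CPM in Control. The groups were well apart (log2 fold change -0.47, SE 0.0944, edgeR adjusted p = 0.00134). Its partner IFT81 had a log2 fold change of -0.01 and did not pass. IFT57, a peripheral IFT-B subunit, had 9.75, 11.2 and 10.5 CPM in SeMC+PBS, 21.2, 16.5 and 22.1 CPM in LPS and 13.3, 15.8 and 15.0 CPM in Control. The groups did not overlap, with SeMC+PBS lowest and LPS highest (SeMC+PBS over Control, log2 fold change -0.49, SE 0.124, edgeR adjusted p = 0.0059). IFT57 overlaps HHLA2, an immune checkpoint ligand gene in humans, whose log2 fold change was -0.52 in SeMC+PBS over Control and 0.98 in LPS over Control. The strand setting of the counting was not given in the sources used here, and the part of HHLA2 reads in the IFT57 counts was not tested. IFT52 was lower by a small amount (log2 fold change -0.21, edgeR adjusted p = 0.0324, and 0.145 without SeMC+PBS replicate 3), and IFT88, an IFT-B core subunit, was the higher one (log2 fold change 0.34, edgeR adjusted p = 0.036, and 0.142 without SeMC+PBS replicate 1).

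The 3 IFT-A genes differed among themselves. IFT122, a core subunit on chromosome 12 (19663105 to 19693876), had 28.6, 25.6 and 27.5 CPM in SeMC+PBS, 43.8, 42.2 and 46.8 CPM in LPS and 41.1, 37.3 and 40.5 CPM in Control. All SeMC+PBS libraries were below all others. SeMC+PBS over Control gave a log2 fold change of -0.54 (SE 0.0814, edgeR adjusted p = 1.6e-04). IFT43, a small peripheral subunit, had 12.2, 13.7 and 14.9 CPM in SeMC+PBS, against 9.60, 9.87 and 9.38 CPM in Control. It was higher in every SeMC+PBS library (log2 fold change 0.50, SE 0.127, edgeR adjusted p = 0.006). IFT140 had a log2 fold change of -0.11 and did not pass.

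**Figure D2:**
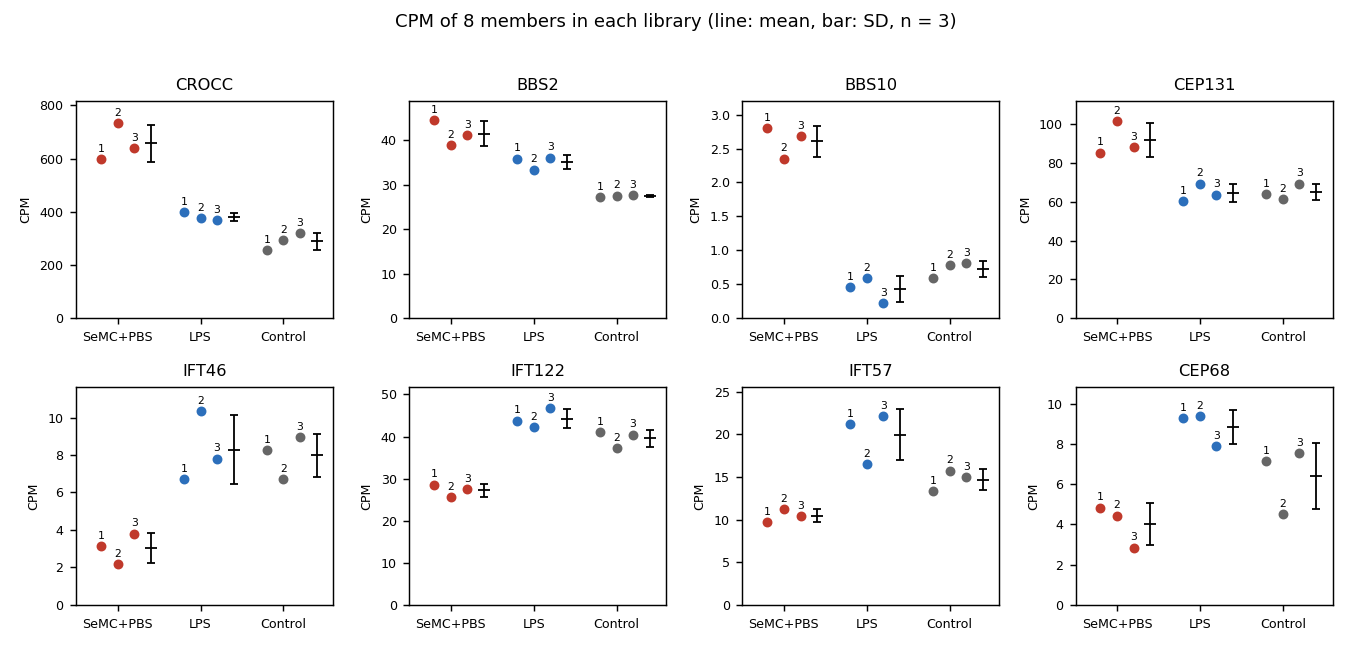
Levels in CPM (vertical axis) of 8 members in each library of SeMC+PBS, LPS and Control; points are libraries numbered by replicate, and the line and bar are the mean and SD (n = 3). CROCC, BBS2, BBS10 and CEP131 are higher in all SeMC+PBS libraries than in all Control libraries, IFT46, IFT122 and IFT57 are lower in all of them, and CEP68 overlaps between these groups.

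Of the 11 satellite, transition zone and ciliogenesis genes, 4 were higher and 1 was lower in SeMC+PBS without the fold-change minimum. The shares over all genes were 20.3% and 19.1%. The median log2 fold change of the 11 genes was 0.11. CEP131, a satellite protein, had 85.3, 102 and 88.2 CPM in SeMC+PBS, 60.2, 69.3 and 63.7 CPM in LPS and 63.8, 61.3 and 69.4 CPM in Control. The SeMC+PBS libraries stood above all LPS and Control libraries, which overlapped each other (SeMC+PBS over Control, log2 fold change 0.50, SE 0.0762, edgeR adjusted p = 1.8e-04). OFD1, a protein of satellites and of the distal centriole, had 16.9, 20.1 and 21.9 CPM in SeMC+PBS, 15.4, 13.3 and 13.3 CPM in LPS and 16.0, 14.5 and 12.7 CPM in Control. The SeMC+PBS libraries were again highest, with a log2 fold change of 0.45 over Control (SE 0.124, edgeR adjusted p = 0.0099, and 0.059 without SeMC+PBS replicate 3). CEP19, which takes part in the entry of IFT-B trains at the ciliary base, had 2.71, 4.52 and 2.42 CPM in SeMC+PBS, against 1.92, 0.980 and 1.80 CPM in Control. Its groups did not overlap (log2 fold change 1.03, SE 0.346, edgeR adjusted p = 0.0277), but without SeMC+PBS replicate 2 the adjusted p was 0.166. CEP126 had 3.64, 2.90 and 4.06 CPM in SeMC+PBS, against 1.66, 2.03 and 1.85 CPM in Control. It did not overlap either (log2 fold change 0.93, SE 0.278, edgeR adjusted p = 0.0148), and without SeMC+PBS replicate 3 the adjusted p was 0.0676.

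CEP290 was the lower member of this group. It had 19.8, 18.6 and 16.4 CPM in SeMC+PBS, against 17.5, 30.4 and 26.3 CPM in Control. Control replicate 1 lay within the SeMC+PBS range. The log2 fold change of -0.44 (SE 0.158, edgeR adjusted p = 0.0374) became -0.27 with an adjusted p of 0.206 without Control replicate 2. PCM1, the scaffold of the satellites, had 86.5, 87.5 and 86.4 CPM in SeMC+PBS, against 73.3, 81.0 and 78.3 CPM in Control. Its groups did not overlap, but it did not pass (log2 fold change 0.16, edgeR adjusted p = 0.0508).

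None of the 20 centriole duplication and appendage genes exceeded 1.5-fold with SeMC alone. At an FDR under 0.05 and above 1.5-fold, 8.5% of all genes were higher and 5.58% lower. CEP57, which acts with CEP63 and CEP152 at the centriole wall, was higher (log2 fold change 0.36), whereas CEP97, which caps centrioles, CEP295, which converts new centrioles into centrosomes, and CEP135, a cartwheel protein, were lower by 0.34, 0.29 and 0.25 on the log2 scale. None of these 4 passed in every fit with a library left out. The highest adjusted p (edgeR) was 0.0694 for CEP57 and 0.191 for CEP135 without SeMC+PBS replicate 3, and 0.112 for CEP97 and 0.0759 for CEP295 without Control replicate 1. Of the appendage genes, CEP112 was higher (log2 fold change 0.37) and CEP170, a subdistal appendage protein, was lower (log2 fold change -0.34). Ninein (NIN), which anchors microtubules at the subdistal appendages, had 51.1, 54.7 and 58.1 CPM in SeMC+PBS, against 38.9, 49.2 and 50.4 CPM in Control. All SeMC+PBS libraries were above all Control libraries, but NIN did not pass (log2 fold change 0.24, edgeR adjusted p = 0.0544). ODF2, on which the appendages are built, had 79.9, 81.9 and 82.2 CPM in SeMC+PBS, against 82.3, 80.3 and 86.8 CPM in Control, and its groups overlapped (log2 fold change -0.03, edgeR adjusted p = 0.684). CEP95 was lower (log2 fold change -0.32), and CEP55, an abscission protein, was at 0.05 and did not pass.

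**Figure D3:**
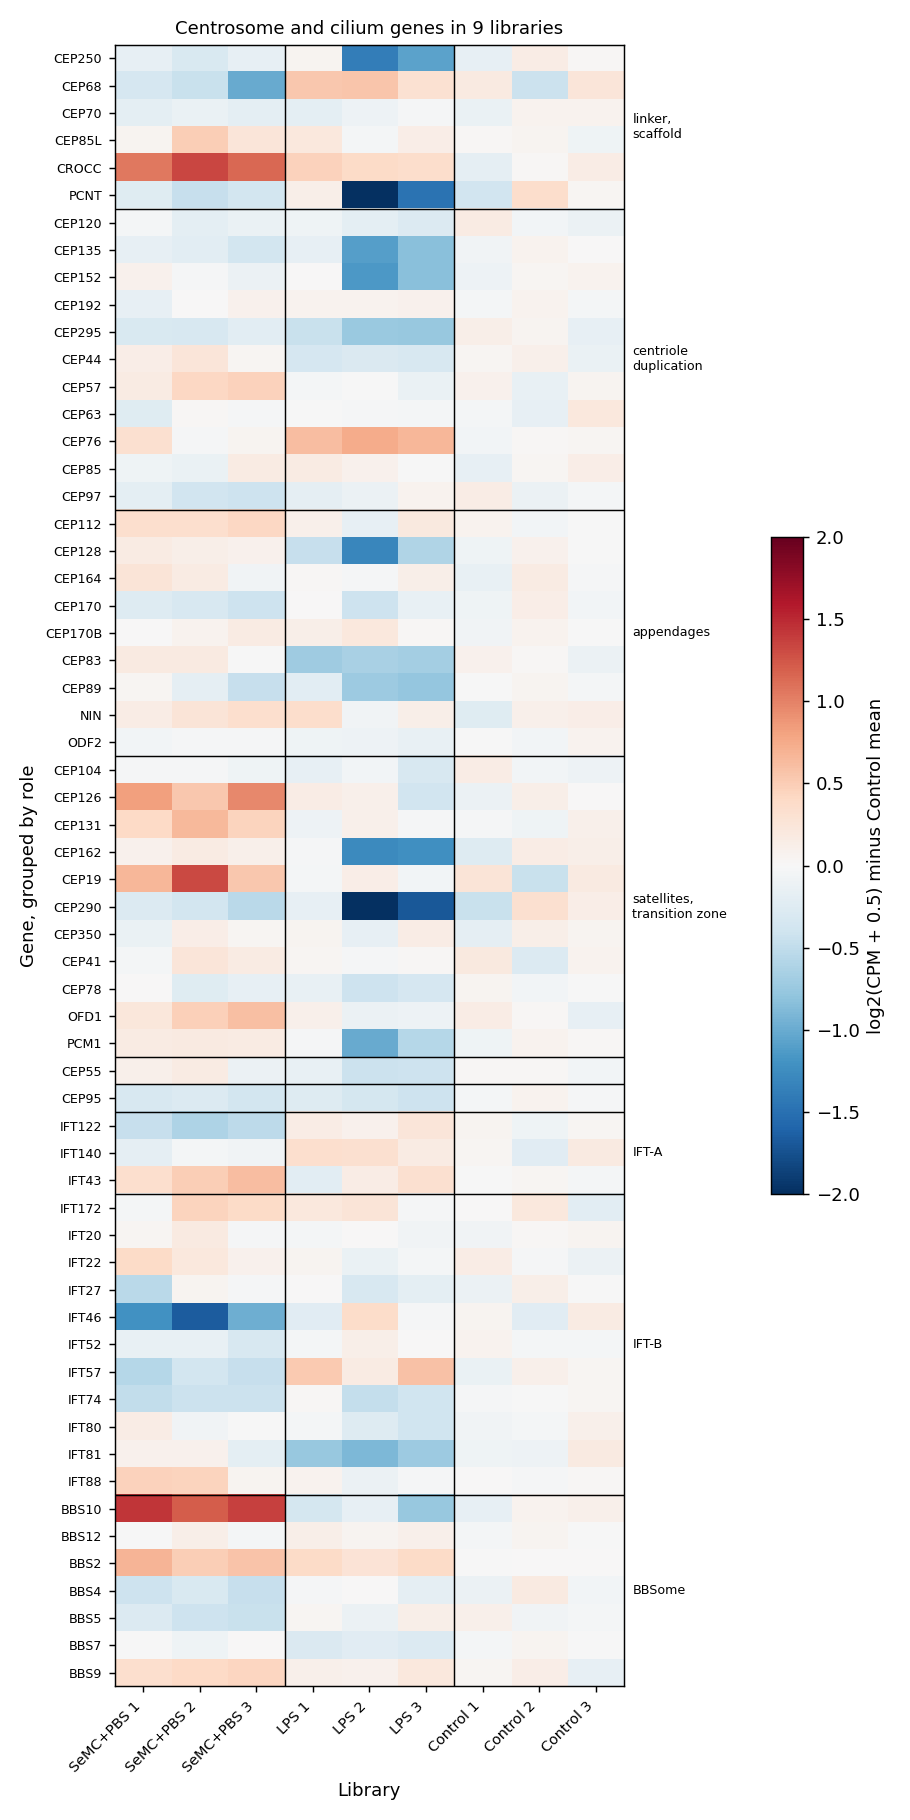
Each row is a member, grouped by role, and each column a library of SeMC+PBS, LPS or Control; colour is log2(CPM + 0.5) minus the Control mean of the gene, limited to the range from -2 to 2. CROCC and BBS10 are raised in all SeMC+PBS columns and IFT46 is reduced in them, while PCNT, CEP290, CEP162 and CEP250 are reduced in LPS replicates 2 and 3 but not in LPS replicate 1.

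LPS was compared with Control to describe the response to the stimulus without SeMC. More members were lower than higher. By FDR and fold change, 1 of 59 members tested was higher (1.69%), against 6.13% of all genes, and 7 were lower (11.9%), against 5.92%. The higher member was CEP76, and the lower ones were CEP290, IFT81, CEP162, CEP128, CEP83, CEP135 and CEP295. Without the fold-change minimum, 4 members were higher (6.78%), against 18% of all genes, and 15 were lower (25.4%), against 16.5%, and 40 did not pass. The median log2 fold change was -0.04 over the members and -0.002 over all 13008 genes tested. BBS10 was below the filter on low counts and was not tested. Over all genes, 50.9% of calls were in the higher direction, or 40.6% when library totals alone were used for scaling. The count of lower members depended on the LPS libraries. It was 12 without LPS replicate 1, 3 without replicate 2 and 4 without replicate 3. Over all genes, 1667, 1438 and 1478 were called in either direction in these fits, against 1567 with all libraries. With replicate 1 as the only LPS library, the median log2 fold change of the members was 0.008. The 15 lower and 4 higher members without the fold-change minimum all passed without LPS replicate 1 too. With it alone, some lower members kept their change and others lost it. CEP44 and BBS7 had log2 fold changes of -0.33 and -0.28 with it alone, against -0.32 and -0.26 with all libraries. CEP152 and PCM1 had 0.02 and -0.01 with it alone, against -0.58 and -0.48. With replicate 1 alone, that LPS library is assumed to vary like the Control libraries. Of the 19 members that passed without the fold-change minimum, 11 passed with every single library left out and 15 passed in DESeq2. These counts too were made only for members that had already passed.

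Some decreases were shared by all LPS libraries. CEP83, a distal appendage protein needed to dock the centriole at the membrane, lies on chromosome 1 (45184719 to 45208867) and overlaps no annotated gene. It had 31.9, 31.9 and 28.0 CPM in SeMC+PBS, 17.0, 17.7 and 17.4 CPM in LPS and 29.9, 28.8 and 26.1 CPM in Control. Every LPS library was below every other library. The log2 fold change in LPS over Control was -0.70 (SE 0.0933, edgeR adjusted p = 3.1e-05), and it was -0.72 with LPS replicate 1 alone (adjusted p = 0.0023). IFT81, a tubulin-binding IFT-B subunit on chromosome 15 (5384037 to 5428931), had 26.3, 26.1 and 21.4 CPM in SeMC+PBS, 14.4, 13.0 and 14.8 CPM in LPS and 23.3, 23.0 and 28.0 CPM in Control. It was also lowest in all LPS libraries (LPS over Control, log2 fold change -0.82, SE 0.11, edgeR adjusted p = 3.3e-05, and -0.78 with LPS replicate 1 alone). The uncharacterized gene LOC101750545 overlaps IFT81 and was lower in LPS than in Control too (log2 fold change -0.95), and the part of its reads in the IFT81 counts was not tested. CEP295 had 33.0, 32.8 and 35.3 CPM in SeMC+PBS, 29.9, 24.3 and 24.2 CPM in LPS and 44.6, 42.4 and 36.5 CPM in Control. The 3 groups did not overlap, with LPS lowest (LPS over Control, log2 fold change -0.66, SE 0.104, edgeR adjusted p = 1.6e-04, and -0.45 with LPS replicate 1 alone).

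CEP128, which organizes the subdistal appendages, had 23.4, 22.8 and 22.3 CPM in SeMC+PBS, 15.1, 8.19 and 13.6 CPM in LPS and 19.7, 22.3 and 20.9 CPM in Control. All LPS libraries were lowest, and replicate 2 was the farthest away. The log2 fold change in LPS over Control was -0.77 (SE 0.167, edgeR adjusted p = 0.00223), and it was -0.96 without LPS replicate 1 and -0.46 with that library alone. CEP135 had 21.0, 20.5 and 18.3 CPM in SeMC+PBS, 21.2, 10.8 and 13.0 CPM in LPS and 22.6, 24.8 and 23.8 CPM in Control. LPS replicate 1 was close to the Control libraries. The log2 fold change of CEP135 in LPS over Control was -0.66 (SE 0.179, edgeR adjusted p = 0.0098), -1.01 without LPS replicate 1 and -0.15 with it alone. Without LPS replicate 3, CEP135 did not pass (edgeR adjusted p = 0.0584). CEP89, a distal appendage protein, passed at -0.57 (edgeR adjusted p = 0.0059), -0.79 without LPS replicate 1 and -0.21 with it alone.

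For other members the decrease rested on LPS replicates 2 and 3. CEP290 stood at a log2 fold change of -1.17 in LPS against Control (SE 0.363, edgeR adjusted p = 0.0213), -2.09 without LPS replicate 1 (adjusted p = 5.0e-07) and -0.20 with it alone (adjusted p = 0.612). In DESeq2 its adjusted p was 0.211. CEP290 overlaps C12orf29, which was lower in LPS too (log2 fold change -0.47, edgeR adjusted p = 9.9e-04), and the part of shared reads was not tested. CEP162, which promotes transition zone assembly, had 13.0, 13.7 and 13.0 CPM in SeMC+PBS, 12.0, 4.77 and 4.93 CPM in LPS and 10.1, 13.6 and 13.2 CPM in Control. LPS replicate 1 was within the Control range. The log2 fold change was -0.77 in LPS over Control (SE 0.269, edgeR adjusted p = 0.0382), -1.36 without LPS replicate 1 and -0.03 with it alone. CEP152, which recruits the duplication kinase PLK4, had 43.3, 19.1 and 23.9 CPM in LPS, against 39.8, 44.0 and 45.3 CPM in Control. Its groups overlapped (log2 fold change -0.58, edgeR adjusted p = 0.036, -1.02 without LPS replicate 1 and 0.02 with it alone). PCM1 had 76.1, 38.3 and 52.3 CPM in LPS, against 73.3, 81.0 and 78.3 CPM in Control. Its groups overlapped as well (log2 fold change -0.48, edgeR adjusted p = 0.0341, -0.79 without LPS replicate 1 and -0.01 with it alone). In DESeq2, CEP162, CEP152 and PCM1 did not pass either, with adjusted p-values of 0.225, 0.247 and 0.233.

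PCNT and CEP250 did not pass in LPS over Control in the edgeR fit with all libraries, TMM scaling, the filter on low counts and no replicate numbers. PCNT had a log2 fold change of -0.88 (SE 0.372, edgeR adjusted p = 0.0833), -1.83 without LPS replicate 1 and 0.10 with it alone. CEP250 had 55.7, 20.1 and 25.2 CPM in LPS, against 47.5, 58.9 and 54.2 CPM in Control. LPS replicate 1 lay within the Control range and the others below it (log2 fold change -0.67, edgeR adjusted p = 0.0507, and -1.26 without LPS replicate 1). Smaller decreases that passed were those of CEP95, CEP55, CEP44, CEP78 and BBS7, with log2 fold changes of -0.35, -0.32, -0.32, -0.30 and -0.26. For CEP55 the value was -0.44 without LPS replicate 1 and -0.13 with it alone (edgeR adjusted p = 0.507), and for CEP78 it was -0.40 and -0.13 (edgeR adjusted p = 0.534), so that these decreases were larger in LPS replicates 2 and 3. CEP55 did not pass without LPS replicate 3 (edgeR adjusted p = 0.0557), nor CEP78 without LPS replicate 2 (edgeR adjusted p = 0.0874). With LPS replicate 1 alone, CEP95, CEP44 and BBS7 stood at -0.26, -0.33 and -0.28. CEP55 overlaps MYOF, which was higher in LPS by 1.98 on the log2 scale, and BBS7 overlaps LOC121110536, which was lower by 0.49.

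The increases in LPS were few. CEP76, which restrains centriole reduplication, is on chromosome 2 (96627662 to 96642016). It had 21.3, 16.8 and 17.7 CPM in SeMC+PBS, 26.3, 28.8 and 27.2 CPM in LPS and 16.4, 17.3 and 17.4 CPM in Control. All LPS libraries were above all others, and SeMC+PBS and Control overlapped (LPS over Control, log2 fold change 0.69, SE 0.0902, edgeR adjusted p = 2.6e-05). It stayed between 0.64 and 0.70 when single libraries were left out. IFT57 was higher by 0.44 in LPS over Control (SE 0.126, edgeR adjusted p = 0.0132), and by 0.35 with an adjusted p of 0.0869 without LPS replicate 3. CROCC was higher by 0.39 on the log2 scale (SE 0.0694, edgeR adjusted p = 4.2e-04). BBS2, with 35.8, 33.4 and 36.1 CPM in LPS, was higher by 0.35 (SE 0.0777, edgeR adjusted p = 0.0024). For all 4 genes the LPS and Control libraries did not overlap. CEP68 had 9.27, 9.38 and 7.88 CPM in LPS, above all Control libraries, but did not pass (log2 fold change 0.47, edgeR adjusted p = 0.0685).

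None of the 3 IFT-A genes passed in LPS over Control, with log2 fold changes of 0.11 to 0.27. NIN had 58.5, 43.8 and 49.6 CPM in LPS and a log2 fold change of 0.13 (edgeR adjusted p = 0.39). ODF2 had 77.9, 77.3 and 74.8 CPM in LPS, just below all Control libraries, and did not pass (log2 fold change -0.12, edgeR adjusted p = 0.155). OFD1 had a log2 fold change of -0.04 (edgeR adjusted p = 0.851) and overlapped between the groups.

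SeMC+PBS and LPS were also compared directly, although they differ in agent, dose and time. By FDR and fold change, and with BBS10 set aside as above, 8 of 59 members were higher in SeMC+PBS (13.6%), against 12.5% of all genes, and 4 were lower (6.78%), against 10.4%. The higher members were CEP19, CEP126, CEP128, CEP162, CEP83, IFT81, CROCC and PCM1, and the lower ones were IFT46, CEP68, IFT57 and IFT122. BBS10, with a log2 fold change of 2.56, makes 9 of 60. Without the fold-change minimum, and again without BBS10, 21 were higher (35.6%), against 27.2% of all genes, 9 were lower (15.3%), against 27.1%, and 29 did not pass. The median log2 fold change of the 60 members was 0.16 (0.15 without BBS10), and that of all 12979 genes tested was 0.005. Scaling by library totals alone moved the median of all genes to 0.119 and that of the members to 0.27. Over all genes, 54.6% of calls were in the higher direction, or 66.5% with library totals and 45.7% with limma on quantile-normalized values. The number of higher members, BBS10 included, was 14 without LPS replicate 1 and 5 without LPS replicate 3. Over all genes, 3075 and 2836 were called in either direction in these fits, against 2971 with all libraries. With LPS replicate 1 as the only LPS library, the median log2 fold change of the members was 0.023.

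By role and without the fold-change minimum, 6 of 11 satellite, transition zone and ciliogenesis genes were higher in SeMC+PBS than in LPS and none was lower. The shares over all genes were 27.2% higher and 27.1% lower. The median log2 fold change was 0.50 in this role, against 0.005 over all genes. Higher and lower genes numbered 4 and 1 of 11 in centriole duplication, 3 and 0 of 9 in the appendages and 1 and 1 of 6 in the linker and scaffold. They numbered 1 and 2 of 3 in IFT-A, 2 and 3 of 11 in IFT-B, and 4 and 2 of 7 in the BBSome genes, BBS10 included. Of the 6 higher satellite, transition zone and ciliogenesis genes, CEP131, CEP126 and CEP19 stood at 0.58, 0.74 and 1.10 with LPS replicate 1 alone. With all libraries they stood at 0.50, 0.96 and 1.04. CEP162, OFD1 and PCM1 stood at 0.12, 0.32 and 0.17 with LPS replicate 1 alone, against 0.86, 0.47 and 0.63 with all libraries. CROCC was higher by 0.77 (SE 0.0683, edgeR adjusted p = 8.3e-07), and CEP83 by 0.81 (SE 0.091, edgeR adjusted p = 8.9e-06). CEP128 and CEP162 were higher by 0.88 and 0.86 on the log2 scale (edgeR adjusted p = 6.4e-04 and 0.0152), and without LPS replicate 3 the adjusted p of CEP162 was 0.0891. CEP162 stood at 1.43 without LPS replicate 1 and at 0.12 with it alone, and CEP128 at 1.05 and 0.58. PCM1 was higher by 0.63 without overlap (edgeR adjusted p = 0.0064, and 0.0648 in DESeq2), with 0.92 without LPS replicate 1 and 0.17 with it alone. CROCC and CEP83 stood at 0.70 and 0.83 with LPS replicate 1 alone, and IFT57, IFT122 and CEP76 at -1.04, -0.71 and -0.52. In the other direction, IFT57 had a log2 fold change of -0.94 (SE 0.132, edgeR adjusted p = 5.6e-05), IFT122 one of -0.71 (SE 0.079, edgeR adjusted p = 7.4e-06) and CEP76 one of -0.57 (SE 0.102, edgeR adjusted p = 4.3e-04). CEP68 had a log2 fold change of -1.14 and IFT46 one of -1.46, both without overlap. Without replicate numbers in the fit, PCNT and CEP290 did not pass at 0.48 and 0.72 (edgeR adjusted p = 0.301 and 0.115). They stood at 1.41 and 1.62 without LPS replicate 1 and at -0.50 and -0.25 with it alone. CEP152 passed at 0.55 (edgeR adjusted p = 0.0403), with 0.97 without LPS replicate 1 and -0.05 with it alone. CEP250 did not pass at 0.44 (edgeR adjusted p = 0.168), with 1.01 without LPS replicate 1 and -0.29 with it alone. NIN, ODF2 and OFD1 had log2 fold changes of 0.10, 0.07 and 0.47, of which OFD1 passed (edgeR adjusted p = 0.00503). OFD1 was at 0.32 with LPS replicate 1 alone.

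**Figure D4:**
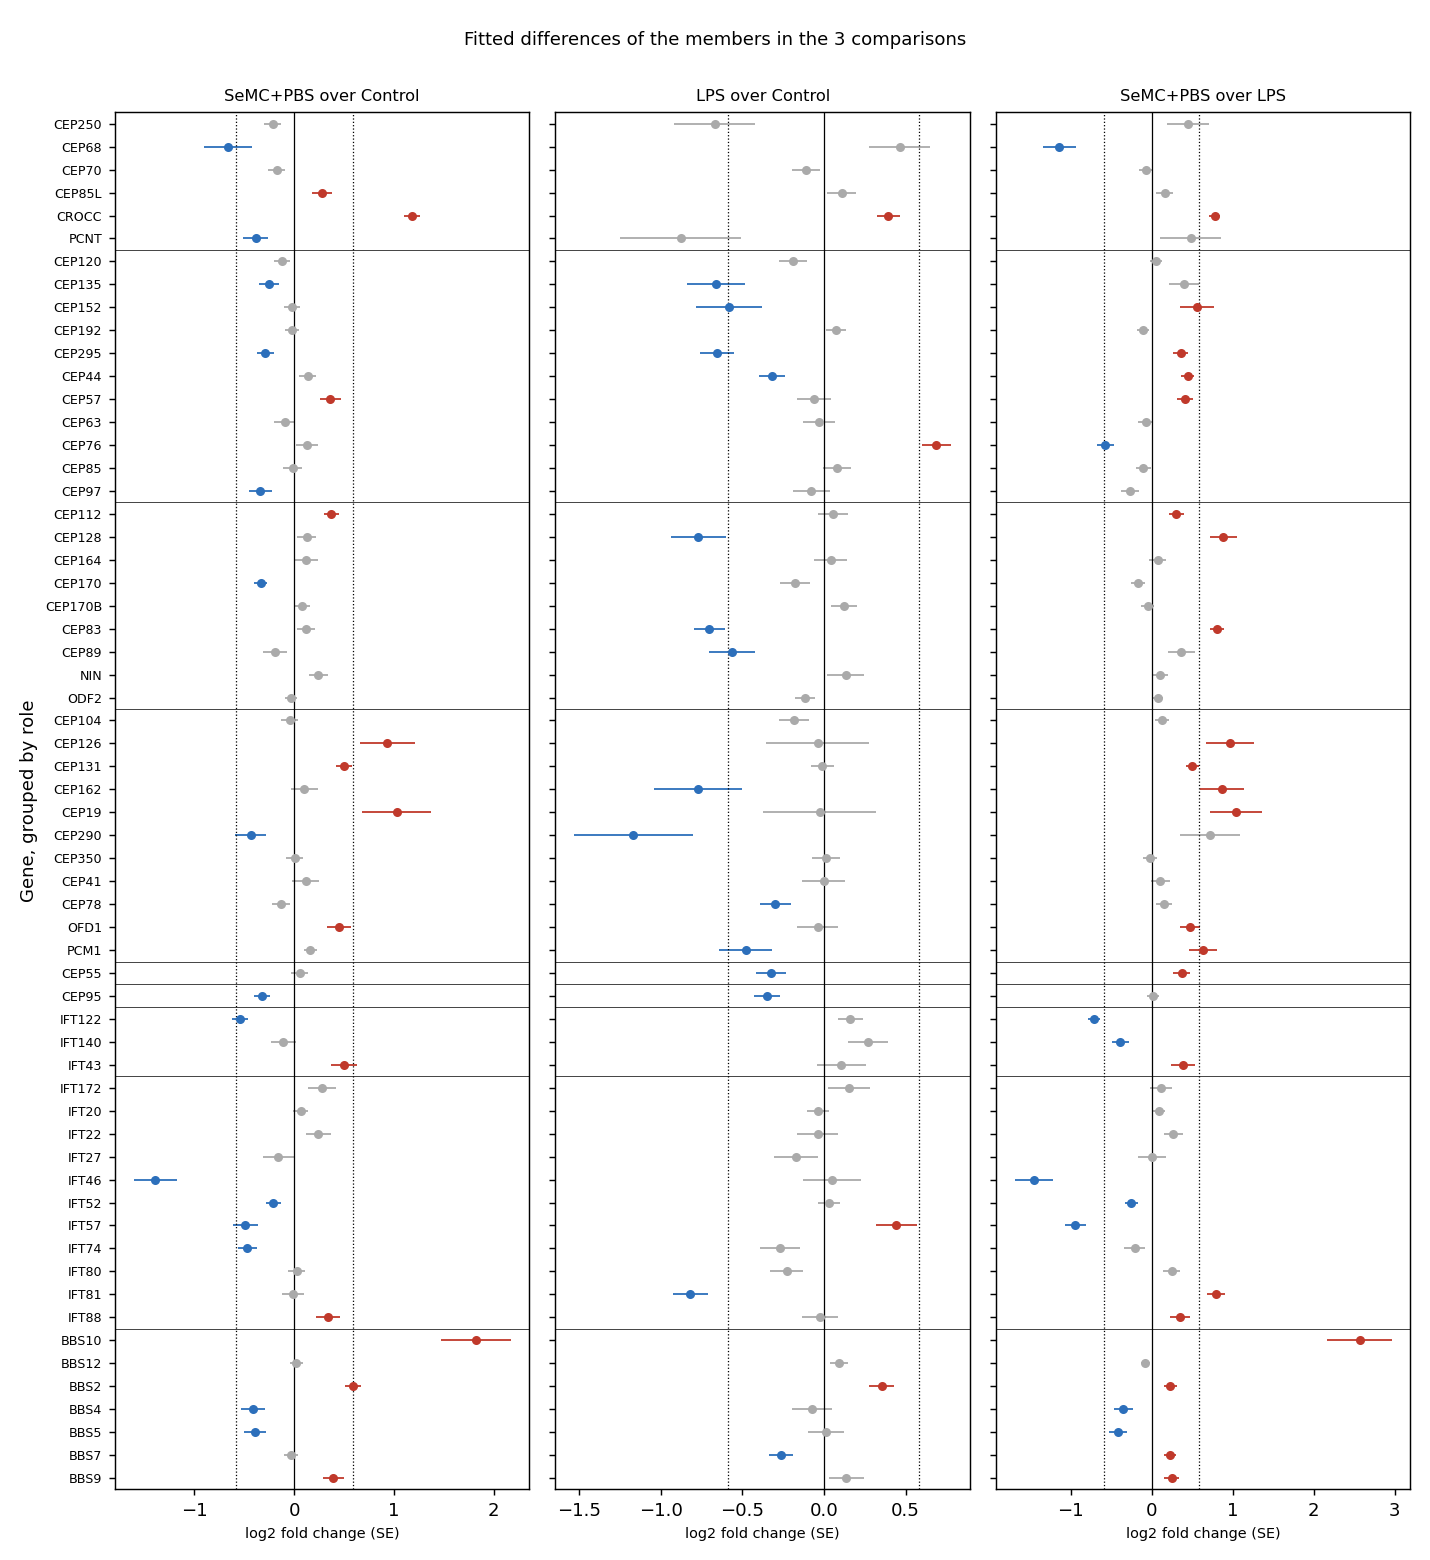
Log2 fold change with its SE (horizontal axis) of each member, grouped by role, in SeMC+PBS over Control, LPS over Control and SeMC+PBS over LPS; red and blue mark higher and lower members at an FDR under 0.05, grey marks members that did not pass, and dotted lines mark a 1.5-fold change. The bars of PCNT and CEP290 are wide in both comparisons with LPS, with SEs of 0.372 and 0.363 in LPS over Control. Each SE was derived from the F statistic of the edgeR test.

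Genes of the same structures under other symbols were described from lists of their own. Their counts use an FDR under 0.05 without a fold-change minimum. By this rule, 20.3% of all genes tested were higher and 19.1% lower in SeMC+PBS over Control. The BBSome subunit BBIP1 had 12.9, 12.9 and 11.7 CPM in SeMC+PBS, 2.55, 2.31 and 3.79 CPM in LPS and 3.44, 3.73 and 3.30 CPM in Control. All SeMC+PBS libraries were above all others (SeMC+PBS over Control, log2 fold change 1.84, SE 0.157, edgeR adjusted p = 1.3e-06). It was the 1 gene of 13 measured IFT and BBSome partners that passed in this comparison. Among 26 transition zone and ciliopathy genes, 2 were higher and 4 lower in SeMC+PBS over Control, and IQCB1, a CEP290 partner, was higher by 0.69 (edgeR adjusted p = 8.8e-04). Of 13 gamma-tubulin ring complex genes and anchors, 1 was higher and 3 were lower, and MZT1, a small ring complex subunit, had a log2 fold change of -0.61. Of 24 tested kinases, GTPases and membrane traffic genes of ciliogenesis, 2 were higher and 4 lower. Of 13 ciliary motor genes, 2 were higher and 4 lower, and the dynein light chain TCTEX1D2 had a log2 fold change of -1.29 at low counts. Of 18 further centriole genes, 5 were higher and 3 lower. None of the 5 augmin genes passed. Of 10 tested Hedgehog genes, 1 was higher and 2 were lower, including the inhibitor HHIP, with 3 counts in all SeMC+PBS libraries together, against 43 in Control. DNAI1, an axonemal dynein chain of motile cilia, had 7.29, 5.88 and 5.44 CPM in SeMC+PBS, against 1.32, 1.5 and 2.14 CPM in Control (log2 fold change 1.89, edgeR adjusted p = 8.8e-05). It was the 1 multiciliated marker of 7 tested that was higher, and 1 was lower.

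In LPS over Control, 8 of the 18 further centriole genes were lower and none was higher, with a median log2 fold change of -0.20. By the same rule, 16.5% of all genes tested were lower and 18% higher. The counts of these lists used all LPS libraries and were not made without LPS replicate 1. CNTRL, centriolin, had 56.4, 20.1 and 25.5 CPM in LPS, against 51.6, 63.2 and 53.8 CPM in Control, so LPS replicate 1 again lay within the Control range. CENPJ, which sets centriole length, had 16.8, 12.4 and 12.6 CPM in LPS, against 22.1, 22.6 and 22.7 CPM in Control. All LPS libraries of CENPJ were lower (log2 fold change -0.69, edgeR adjusted p = 4.3e-04). Of the 5 augmin genes, which nucleate microtubules within the spindle, 4 were lower (median log2 fold change -0.35). Of the gamma-tubulin ring complex genes and anchors, 1 was higher and 2 were lower, of the transition zone genes 1 and 3, of the IFT and BBSome partners 2 and 1, of the motors 2 and 3, and of the Hedgehog genes 0 and 3. Of the 24 tested kinases, GTPases and membrane traffic genes, 4 were higher and 5 lower. EHD3, a membrane traffic protein that acts in ciliary vesicle formation, had 758, 782 and 771 CPM in LPS, against 274, 264 and 254 CPM in Control (log2 fold change 1.55, edgeR adjusted p = 3.4e-12).

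The transcription factors of ciliogenesis went in different directions in LPS. RFX2 had 9.11, 9.90 and 8.03 CPM in LPS, against 23.9, 22.0 and 20.8 CPM in Control (log2 fold change -1.30, SE 0.119, edgeR adjusted p = 5.8e-07). FOXJ1, the master regulator of motile cilia, had 5.95, 5.21 and 4.77 CPM in LPS, against 0.861, 2.61 and 3.01 CPM in Control (log2 fold change 1.28, SE 0.324, edgeR adjusted p = 0.0064). Neither overlapped between the groups. Of 7 factors tested, 2 were higher and 1 was lower in LPS over Control, and 1 was higher and 3 were lower in SeMC+PBS over Control. The shares over all genes are those given above for each comparison.

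Proliferation genes were lower in LPS as well, counted without a fold-change minimum. By that rule, 16.5% of all genes tested were lower and 18% higher in LPS over Control. In SeMC+PBS over Control, 19.1% were lower and 20.3% higher. Of 27 G2/M genes, 24 were lower and 1 was higher in LPS over Control (median log2 fold change -0.41), and of 24 G1/S and replication genes 17 were lower and none was higher (median -0.27). In SeMC+PBS over Control, 8 of the G2/M genes were lower and 2 were higher, with a median of -0.06, and 8 of the G1/S genes were lower and 5 higher, with a median of -0.03. HMMR, a spindle protein, had 25.5, 17.1 and 17.2 CPM in LPS, against 35.8, 37.9 and 36.9 CPM in Control, so that LPS replicate 1 was lower than Control for this gene. Many centriole genes are transcribed in a cell cycle dependent manner, and the part of proliferation in the lower centriole and appendage members was not tested.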

How the data were processed

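The authors mapped single-read RNA-seq of HD11 cells with HISAT2 to GRCg7b, counted reads per gene with HTSeq and deposited raw counts, without normalization. Versions and the strand setting are not given in the sources used here. Of 12 libraries, the 3 of SeMC+LPS were left out, and total counts are given in the report. Members and gene lists were chosen with earlier results of these data known. Each comparison used its 6 libraries in edgeR 4.0.16 (R 4.3.3), with TMM scaling, filterByExpr (minimum count 10), and the quasi-likelihood test with Benjamini-Hochberg adjustment over all genes tested. Calls required FDR under 0.05 together with more than 1.5-fold change, and members were also counted with no fold-change minimum. The SE of a log2 fold change is its absolute value divided by the square root of the F statistic of the test. CPM used TMM factors of all 9 libraries. Per-library values were given for CROCC, PCNT, NIN, ODF2, OFD1 and PCM1 and for the members with the largest changes at an FDR under 0.05 and a mean of at least 100 counts (6 each way against Control, 3 each way in SeMC+PBS over LPS), and for others said to be chosen later. CEP295, CEP152 and CEP250 also fall outside this rule and were named with their values known. Genes outside the members were taken from lists and named when called. Coordinates and overlaps came from the RefSeq annotation of GRCg7b, which held 60 of 60 members, of which 26 overlap another gene. Alternatives used DESeq2 1.42.0, limma 3.58.1, other scalings and filters, a replicate block and left-out libraries. The test was tried on simulated counts. Python 3.11.15, pandas 2.3.3, numpy 2.4.6 and matplotlib 3.10.9 were used.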

Additional observations from a re-analysis of the deposited data

How the results depend on the processing

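Over 43 values of named genes, 672 alternatives were run, of which 584 kept direction and side of the threshold, 66 no longer passed, 14 newly passed and 8 reversed. The reversals concerned values near 0 or the split LPS libraries. In LPS over Control they were NIN (-0.0 to 0.219 with single libraries left out, lowest without LPS replicate 1), OFD1 (0.006 with limma on quantile-normalized values, -0.128 to 0.042 with single libraries left out, highest without Control replicate 1, 0.116 without LPS replicates 2 and 3) and PCNT (0.101 without LPS replicates 2 and 3). In SeMC+PBS over LPS they were NIN (-0.004 without LPS replicate 2, -0.122 without LPS replicates 2 and 3) and PCNT (-0.497 without LPS replicates 2 and 3). Leaving out LPS replicates 2 and 3 together was chosen after seeing the data. It leaves 1 LPS library, so a member can stop passing in that fit without a smaller change. The cause of these moves was not tested.

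Counts and medians of members in this section include BBS10 where it was tested. Most are given without a share over all genes and describe only the members. With it, the main values in SeMC+PBS over Control were 5 higher and 2 lower, and 13 and 15 with no fold-change minimum. In this comparison, members called lower numbered 1 with DESeq2, with limma-voom, with quantile normalization and without members that overlap another gene. Members called higher numbered 3 with quantile normalization and without overlapping members. With no fold-change minimum, 7 were lower in DESeq2, and 7 higher and 7 lower with quantile normalization. The median was 0.024 with library totals. A 1.2-fold minimum gave 13 higher, 13 lower and 4111 genes in all, and no minimum gave 13, 15 and 5172. Single libraries left out gave 2 to 4 higher, 1 to 2 lower, medians of -0.033 to 0.034, and 7 to 13 lower with no minimum.

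In LPS over Control, members called lower numbered 11 with limma-voom, 3 with quantile normalization, 3 without overlapping members and 2 without LPS replicates 2 and 3. With no minimum, 2 were higher and 5 lower with quantile normalization, and 4 were lower without LPS replicates 2 and 3. The median was -0.113 with library totals. A 1.2-fold minimum gave 4 higher, 14 lower and 3597 genes, and no minimum gave 4, 15 and 4491. Single libraries left out gave 1 to 2 higher, 3 to 12 lower, and 8 to 21 lower with no minimum.

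With BBS10, the main values in SeMC+PBS over LPS were 9 higher and 4 lower, and 22 and 9 with no minimum. Members called higher numbered 5 with quantile normalization, 5 without LPS replicates 2 and 3, and 4 without overlapping members, which left 2 lower. With no minimum, 11 were higher with quantile normalization and 8 without LPS replicates 2 and 3. The median was 0.27 with library totals and 0.023 without LPS replicates 2 and 3. A 1.2-fold minimum gave 19 higher, 8 lower and 5883 genes, and no minimum gave 22, 9 and 7051. Single libraries left out gave 5 to 14 higher, medians of 0.133 to 0.21, and 14 to 26 higher with no minimum.

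Replicate numbers were not used to pair the libraries. The correlations of same-numbered deviations were 0.0465, 0.0476 and 0.00842 in SeMC+PBS over Control, -0.0407, -0.0424 and 0.0111 in LPS over Control, and 0.0062, 0.0303 and 0.0347 in SeMC+PBS over LPS. Such low values over all genes cannot show that same-numbered libraries shared no culture. With the replicate number as a block, members called higher and lower were 5 and 2, 1 and 10, and 12 and 4 in these comparisons, and all genes called were 1844, 1523 and 2971. Of the members that passed without a block or a fold-change minimum, 27 of 28, 19 of 19 and 30 of 31 also passed with the block. PCNT and CEP250 newly passed with the block in LPS over Control (edgeR adjusted p = 0.0431 and 0.0265), and NIN in SeMC+PBS over Control (edgeR adjusted p = 0.0211). In SeMC+PBS over LPS, those newly passing were PCNT, CEP250, CEP290, CEP135, CEP89 and IFT80 (edgeR adjusted p = 0.0328, 0.0286, 0.0186, 0.0336, 0.0221 and 0.0358). Low counts limit BBS10, CEP19 and CEP126, and with 3 libraries in each group one library can decide a call.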
